A study of Mus musculus with 24 samples.

Results

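The exocrine pancreas genes described here are 35 genes known for the acinar cells of the pancreas, chosen by symbol from a list of digestive enzymes, granule proteins, secretory pathway genes, regenerating proteins and acinar transcription factors. All 35 symbols were found among the 25410 symbols of the expression tables, and entries with the same symbol were summed. The tissue sequenced was the duodenum, taken from male mice that lack Cyp27b1, the enzyme that makes the hormone 1,25-dihydroxyvitamin D3 (1,25D). All mice carried that deletion and ate a vitamin D-deficient purified diet from weaning at 3 weeks. The normal diet held 0.47% calcium and 0.3% phosphorus, and the rescue diet held 2% calcium, 1.25% phosphorus and 20% lactose. At 8 weeks the mice received vehicle or 2 ng 1,25D per g of body weight into the peritoneum, and the tissue was taken 6 h later. The 4 groups (normal vehicle, normal 1,25D, rescue vehicle and rescue 1,25D) held 6 libraries each. No wild type mice are analysed here, so each group is a comparison within the mutant.

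Acinar cells make the bulk of the protein of pancreatic juice and store it in zymogen granules. A meal releases cholecystokinin from the duodenum, the granules empty into the pancreatic ducts, and enteropeptidase on the duodenal surface turns trypsinogen into trypsin, which activates the other proenzymes. The head of the pancreas lies in the curve of the duodenum, while the duodenal lining itself receives these enzymes and is not known as a main site of their synthesis. Transcription of many of these genes rests on PTF1, a complex of Ptf1a and Rbpjl that binds an E-box next to a TTTCCC-like box.

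The sequences just upstream of their start sites are shown for 3 enzyme genes that moved together across libraries and for Reg1, which did not. The 3 are among the 6 genes that held both an E-box and TTTCCC, so they do not stand for all genes that moved together. Pnlip, Pnliprp1, Gp2, Sycn and Rnase1 also moved together and held no match. Reg2 and Bhlha15 followed less closely and held CACCTG. Each is the 250 bases before the start in the RefSeq table of build GRCm38.p6, on the gene's strand, and the deposited values were made on another build. The bases after the start were found near the beginning of a GENCODE transcript of the gene for Cel and Cela2a. They were not found so for Prss1 and Reg1, so the start used for these is less certain. Capitals mark the E-boxes CACCTG and CAGCTG and the box TTTCCC, found on either strand, so CAGGTG and GGGAAA are the same letters read from the other strand.
Prss1 (chr6:41458680-41458929, plus strand): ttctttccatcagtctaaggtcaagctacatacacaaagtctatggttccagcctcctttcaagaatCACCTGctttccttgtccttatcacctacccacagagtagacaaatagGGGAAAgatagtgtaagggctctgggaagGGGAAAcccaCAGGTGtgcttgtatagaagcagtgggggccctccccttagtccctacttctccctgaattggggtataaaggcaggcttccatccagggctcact
Cel (chr2:28563404-28563653, minus strand): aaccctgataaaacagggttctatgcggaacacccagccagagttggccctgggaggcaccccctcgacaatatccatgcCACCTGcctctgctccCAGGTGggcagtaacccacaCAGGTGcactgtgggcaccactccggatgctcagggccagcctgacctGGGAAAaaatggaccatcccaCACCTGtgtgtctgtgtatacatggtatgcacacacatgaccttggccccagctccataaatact
Cela2a (chr4:141826006-141826255, minus strand): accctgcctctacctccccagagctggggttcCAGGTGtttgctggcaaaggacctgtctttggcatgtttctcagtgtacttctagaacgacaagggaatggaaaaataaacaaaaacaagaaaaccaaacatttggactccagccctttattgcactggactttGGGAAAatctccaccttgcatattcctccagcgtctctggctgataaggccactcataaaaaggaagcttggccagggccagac
Reg1 (chr6:78425733-78425982, plus strand): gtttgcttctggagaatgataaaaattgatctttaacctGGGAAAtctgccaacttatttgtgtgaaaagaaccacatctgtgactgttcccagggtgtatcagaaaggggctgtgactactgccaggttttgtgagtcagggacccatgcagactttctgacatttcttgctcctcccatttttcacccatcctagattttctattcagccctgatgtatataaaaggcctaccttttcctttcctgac
The trypsinogen gene Prss1 held 2 CACCTG and 2 TTTCCC matches, with GGGAAA at 106 to 101 and CAGGTG at 96 to 91 bases before the start. The lipase gene Cel held 4 CACCTG matches and 1 TTTCCC match, the elastase gene Cela2a 1 of each, and Reg1 no E-box and 1 TTTCCC match. Of the 35 genes 30 matched an entry in the table. CACCTG was found in 18 of these 30 (60%), against 17.2% of 32851 promoter windows of the same length. Each of the 30 genes counts with 1 window, whereas the 32851 windows belong to 27025 genes, so some genes count more than once there. CAGCTG was found in 6 of 30 (20%) against 13%, TTTCCC in 8 of 30 (26.7%) against 21.9%, and an E-box together with TTTCCC in 6 of 30 (20%) against 5.91%. No matches overlap in the sequences printed. Genes of 1 family share promoter sequence, though, and a match of letters is a description of the window and not a binding site.

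The values are RPKM, which divides reads by the size of the library and the length of the gene, so levels of different genes can be set side by side. Summed RPKM ran from 541395 to 697913 per library, absolute depth is unknown, and relative depth estimated from the steps between low values ran from 0.627 to 1.37. That estimate matched few of the 23 library pairs of normal vehicle replicate 6 (4 pairs), rescue vehicle replicate 5 (1 pair) and rescue vehicle replicate 6 (2 pairs). Correlations between libraries ran from 0.867 to 0.981. Cyp24a1, the enzyme that breaks down 1,25D, lay at 0.016 to 4.03 RPKM in the 12 vehicle libraries and at 92.1 to 1036 RPKM in the 12 injected ones, so the injection labels hold for every library. Villin, Vil1, a protein of the enterocyte brush border, lay between 116 and 328 RPKM in the 24 libraries, which fits the labelled tissue.

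RNA of the exocrine pancreas genes was present in all 24 libraries, at levels that differed more between libraries than between groups. Together the 35 genes took 0.866% of the summed RPKM in the median library. In normal vehicle replicates 1 to 6 the share was 3.38%, 2.69%, 6.07%, 0.732%, 1.74% and 17.8%. In normal 1,25D replicates 1 to 6 it was 0.852%, 4.09%, 0.582%, 0.984%, 0.576% and 0.474%. These groups overlapped, because normal vehicle replicate 4 fell among the injected libraries and normal 1,25D replicate 2 among the vehicle ones. In rescue vehicle replicates 1 to 6 the share was 0.552%, 0.881%, 2.67%, 0.532%, 0.13% and 0.705%. In rescue 1,25D replicates 1 to 6 it was 6.30%, 0.565%, 0.231%, 0.31%, 1.5% and 0.904%. Each of the 4 groups thus had a library well above the rest of its group. The median of a group was 3.03% for normal vehicle and 0.717% for normal 1,25D. For the rescue diet it was 0.629% with vehicle and 0.735% with 1,25D, within the spread of either group. Bulk tissue cannot tell fewer acinar cells from less RNA per cell, and where this RNA came from was not tested.

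Reg1 set the lower end of these shares. It was the most abundant of the 35 genes in 13 libraries and Amy2a5 in the other 11, and Reg1 made up between 2.06% and 92.7% of their summed RPKM. Without Reg1 the share ran from 0.0162% in rescue vehicle replicate 5 to 17.5% in normal vehicle replicate 6, with a median of 0.532%. The group medians without Reg1 were 2.86% for normal vehicle and 0.365% for normal 1,25D. They were 0.491% for rescue vehicle and 0.478% for rescue 1,25D. Leaving out Reg1 thus put normal 1,25D below both rescue groups and changed the order of the 2 rescue groups. Of the 31 genes other than Reg1, Reg2, Spink3 and Bhlha15, 23 lay under 1 RPKM in rescue vehicle replicate 5, 22 in normal 1,25D replicate 6, 20 in rescue 1,25D replicate 3 and 10 in rescue 1,25D replicate 4. In the other 20 libraries between 1 and 7 of them did.

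**Figure D1:**
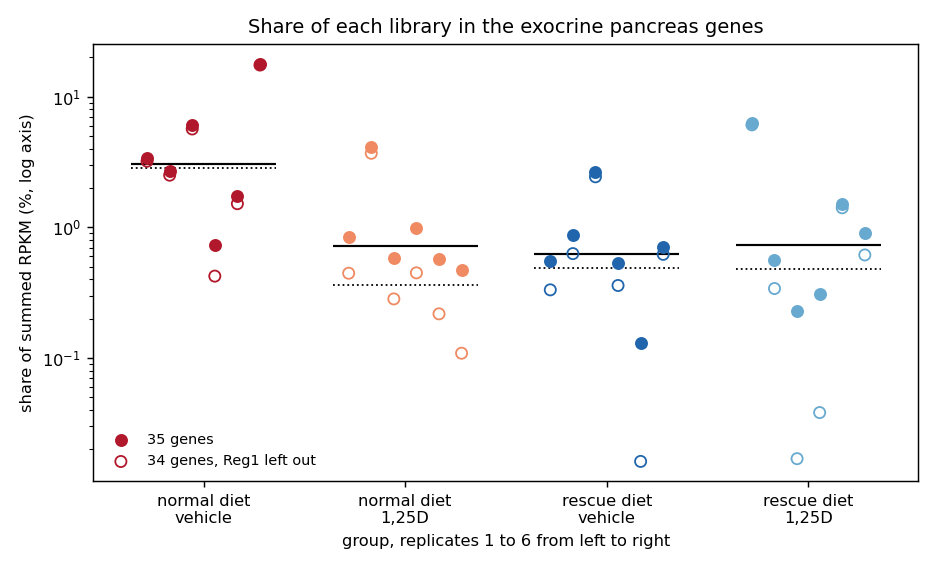
Share of summed RPKM (percent, log axis) in the 35 exocrine pancreas genes (filled points) and in the 34 without Reg1 (open points), 1 point per library, with group medians as solid and dotted lines. Normal vehicle replicate 6 stands highest at 17.8%, and without Reg1 rescue vehicle replicate 5 stands lowest at 0.0162%.

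Most of the genes moved as a block. Against the summed level of the other 34, on the log2(RPKM + 0.5) scale over 24 libraries, Pearson's r was 0.8 or more for 30 of the 35 and 0.9 or more for 19. Of the 19972 other genes that passed the filter, 23 reached 0.8 against the sum of all 35, and their median r was -0.21. Normal vehicle replicate 6 was the highest library for 32 of the 35. The lowest library was rescue vehicle replicate 5 for 13 genes, rescue 1,25D replicate 3 for 10 and normal 1,25D replicate 6 for 5. These correlations describe 24 libraries that share scaling and groups and carry no test. The group with the highest median was normal vehicle for 30 genes, and the group with the lowest was normal 1,25D for 27.

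**Figure D2:**
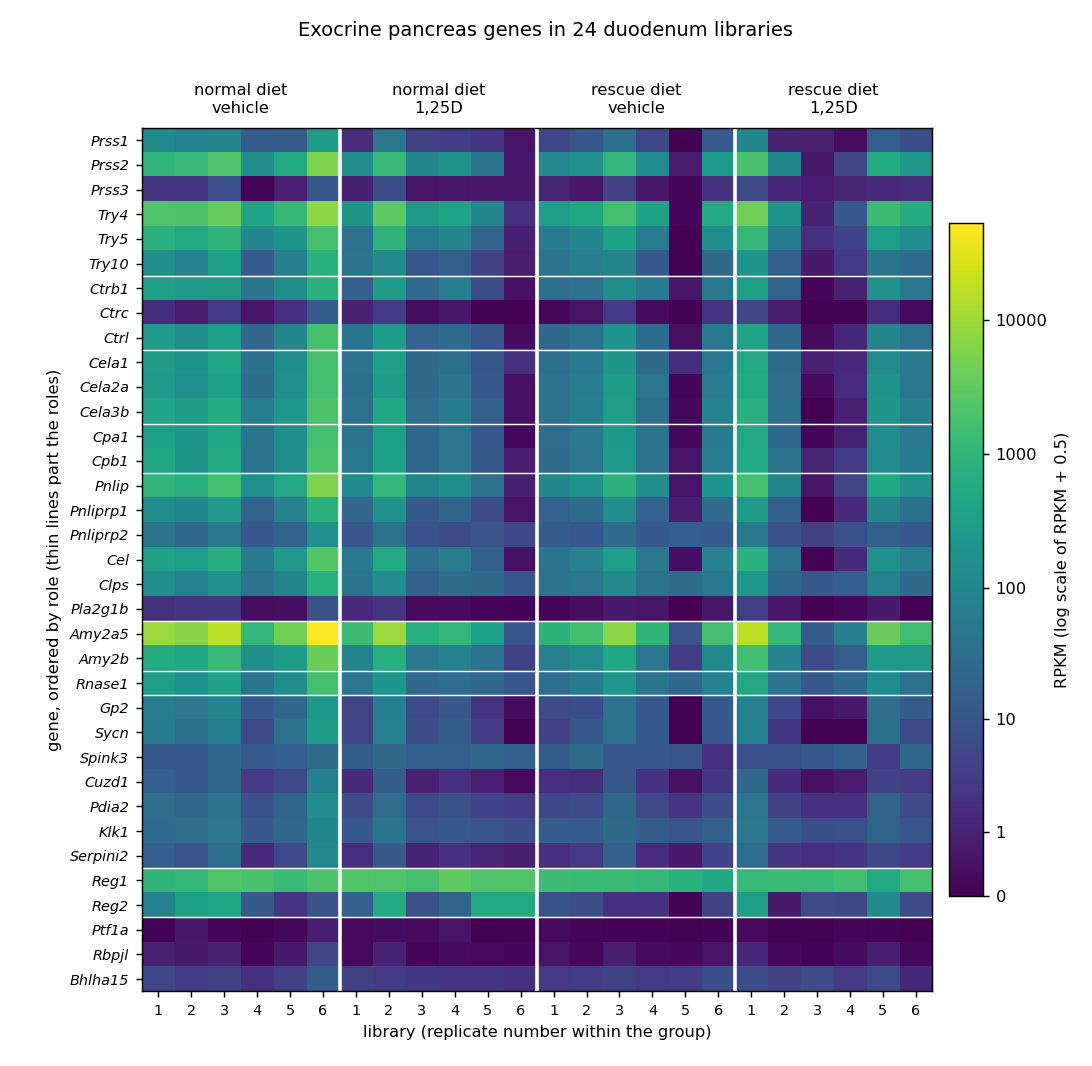
RPKM (colour, log scale of RPKM + 0.5) of the 35 genes (rows, by role) in the 24 libraries (columns, by group and replicate). Columns are bright or dark as a whole, as in normal vehicle replicate 6 and rescue vehicle replicate 5, while the rows of Reg1, Spink3 and Bhlha15 vary less.

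The trypsinogens Prss1, Prss2, Prss3, Try4, Try5 and Try10 are the precursors of trypsin. Try4 was the most abundant, at 0.084 to 7269 RPKM with a median of 464, and Prss2 followed at 0.561 to 5707 RPKM with a median of 185. The ratio of Prss2 to Try4 stayed between 0.327 and 0.785 in the 21 libraries with 1 RPKM or more of both, over which Try4 changed 585-fold. Prss3 was scarce, at 0.115 to 11.8 RPKM. Try5, Try10 and Prss1 were listed at 0 in rescue vehicle replicate 5. Trypsinogens are close copies of each other, and how their common reads were divided is unknown.

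The chymotrypsinogen genes Ctrb1 and Ctrl had medians of 49.3 and 39.3 RPKM and reached 806 and 1831 RPKM, whereas Ctrc reached 15.0 RPKM and was listed at 0 in 5 libraries. The elastase genes Cela1, Cela2a and Cela3b had medians of 44.1, 48.9 and 71.2 RPKM and reached 1778, 1645 and 2101 RPKM, all in normal vehicle replicate 6. Cpa1 and Cpb1, whose enzymes trim amino acids from the carboxyl end of peptides, had medians of 48.5 and 49.2 RPKM. The ratio of Cpa1 to Cpb1 lay between 0.633 and 1.09 in the 20 libraries with 1 RPKM or more of both. Cpb1 itself changed 157-fold over these, and libraries below that level were left out. The ratio of Cela2a to Cpa1 lay between 0.679 and 1.42 in 20 libraries chosen by the same rule.

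The lipid-digesting genes fell into 2 kinds. Pnlip, the main pancreatic triglyceride lipase, ran from 0.453 to 5673 RPKM with a median of 171, and Cel, the bile salt-dependent lipase, from 0.051 to 2438 RPKM. The ratio of Cel to Pnlip stayed between 0.311 and 0.524 in the 21 libraries with 1 RPKM or more of both. Pnlip changed 1110-fold over these, and libraries below that level were left out. Pnliprp1, a lipase-related protein, ran from 0.032 to 863 RPKM. Clps, the colipase that anchors Pnlip to fat droplets, never fell below 10.6 RPKM, and Pnliprp2, a lipase that also digests galactolipids, never below 4.04 RPKM. The ratio of Clps to Pnlip therefore ran from 0.106 to 2.95 in the 21 libraries with 1 RPKM or more of both. Pla2g1b, a secreted phospholipase, reached 8.15 RPKM and was listed at 0 in 3 libraries.

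Amylase was the most abundant pancreatic message where these genes were high. Amy2a5 ran from 9.30 to 52789 RPKM with a median of 1452. Its ratio to Pnlip stayed between 6.45 and 14.6 in the 21 libraries with 1 RPKM or more of both. Amy2b ran from 3.32 to 3859 RPKM. The 4 near-identical copies outside the list, Amy2a1 to Amy2a4, summed to 20.7 to 93815 RPKM, or up to 16.9% of a library. With them the share of the 35 genes rose to 34.7% in normal vehicle replicate 6 and to 1.29% in the median library. The ratio of Amy2a3 to Amy2a2 stayed between 1.01 and 1.09 in all 24 libraries, and reads of such copies cannot be assigned with certainty. Other ratios to Amy2a2 varied more, from 0.974 to 2.95 for Amy2a5 and from 0.668 to 1.99 for Amy2a1. How reads common to the copies were counted is unknown, so the same reads may enter these summed shares more than once. Rnase1, the secreted pancreatic ribonuclease, ran from 10.9 to 1775 RPKM and, like Clps, had a level in every library.

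Genes of the granule and secretory pathway followed at lower levels. Gp2, the main glycoprotein of the zymogen granule membrane, ran from 0.017 to 242 RPKM, Sycn, the granule protein syncollin, from 0 to 268 RPKM and Cuzd1, another granule membrane protein, from 0.213 to 74.2 RPKM. Pdia2, a protein disulfide isomerase of the pancreas, had the highest correlation with the sum of the others (r = 0.98, 24 libraries) at 2.05 to 134 RPKM. That rank rested on a sum that holds Reg1. Against a sum without Reg1, Pdia2 had r = 0.95, below Cela1 at 0.99. Klk1, tissue kallikrein, never fell below 7.36 RPKM, and Serpini2, a serpin of the pancreas, ran from 0.668 to 113 RPKM. Spink3, a trypsin inhibitor, did not follow: it ran from 1.84 to 29.7 RPKM with r = 0.17, and its highest library was rescue vehicle replicate 2.

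**Figure D3:**
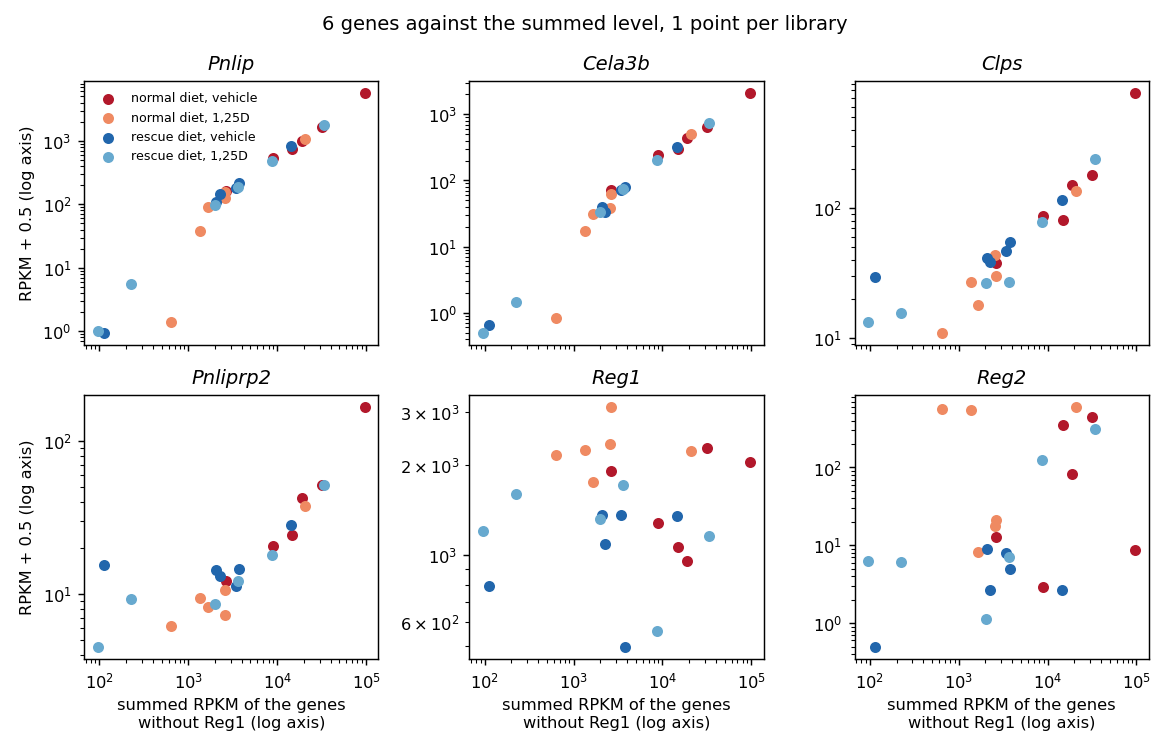
RPKM + 0.5 of 6 genes (log axes) against the summed RPKM of the exocrine pancreas genes without Reg1, 1 point per library coloured by group. Pnlip and Cela3b run along a line, Clps and Pnliprp2 level off above 10.6 and 4.04 RPKM, and Reg1 and Reg2 follow no line.

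The regenerating proteins, small secreted lectins, stood apart from the enzymes. Reg1 lay between 497 and 3105 RPKM in all 24 libraries (r = 0.06 with the sum of the others), with a median of 1361. In the 3 libraries where Pnlip lay under 1 RPKM, Reg1 was at 2148 RPKM (normal 1,25D replicate 6), 793 RPKM (rescue vehicle replicate 5) and 1202 RPKM (rescue 1,25D replicate 3), on both sides of that median. Reg2 lay at or above 81.8 RPKM in 8 libraries and at or below 20.4 RPKM in the other 16, with none between. The 8 were normal vehicle replicates 1, 2 and 3, normal 1,25D replicates 2, 5 and 6, and rescue 1,25D replicates 1 and 5. Reg2 reached 551 and 558 RPKM in normal 1,25D replicates 5 and 6, where Pnlip lay at 37.4 and 0.896 RPKM, and 8.34 RPKM in normal vehicle replicate 6, where the enzymes were highest.

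Of the acinar transcription factors, Ptf1a lay at 0 to 0.792 RPKM and did not pass the filter on low values (0.5 RPKM or more in at least 6 libraries). Its highest value was in normal vehicle replicate 6 and its second highest, 0.594 RPKM, in normal vehicle replicate 2. Rbpjl, the partner of Ptf1a, ran from 0.063 to 5.07 RPKM and followed the enzymes (r = 0.89, and 0.81 against a sum without Reg1). It reached 0.5 RPKM in only 9 libraries, so most of its values lay under the 0.5 added before the log. Bhlha15, a factor that shapes secretory cells of several organs, lay between 1.33 and 14.5 RPKM with r = 0.46. The other 34 genes passed the filter, some of them only through the libraries where they were high. All 34, Rbpjl among them, enter the counts of the comparisons below.

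The first comparison asks whether 1,25D changed these genes on the normal diet. Amy2a5 ran from 1058 through a median of 7975 to 52789 RPKM under vehicle and from 10.03 through 904 to 9200 RPKM after 1,25D. Prss1 ran from 13.3 through 93.6 to 305 RPKM under vehicle and from 0.413 through 3.14 to 48.0 RPKM after 1,25D. Pnlip ran from 163 through 867 to 5673 RPKM under vehicle and from 0.896 through 108 to 1061 RPKM after 1,25D. The injected libraries lay lower on the whole, and each gene's groups overlapped. For Prss1 and Pnlip only normal 1,25D replicate 2 reached into the vehicle range, and for Amy2a5 normal 1,25D replicates 1, 2 and 4 passed normal vehicle replicate 4. The log2 fold change of RPKM + 0.5 was -3.92 for Prss1 (SE 1.11; limma adjusted p = 0.0709), -3.77 for Amy2a5 (SE 1.61; 0.312) and -3.76 for Pnlip (SE 1.65; 0.332). None of the 34 genes tested was called by limma at an adjusted p under 0.05, and 1.84% of the 20006 genes tested were called (0.055% of the 20006 as lower).

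The direction was nonetheless shared. The log2 fold change was below 0 for 31 of the 34 genes, against 41.2% of all genes tested, and the median was -3.13 beside 0.05 for all genes. At an unadjusted p under 0.05 limma found 28 of the 34 lower and 0 higher, where 2.22% of all genes were lower. These genes vary together across libraries, so the 28 are not independent of each other. For 0 of the 34 did the 6 libraries of a group lie clear of the other 6, against 2.22% of all genes. The smallest adjusted p after Prss1 were those of Cuzd1 (log2 -2.70, SE 0.79, limma adjusted p = 0.0845), Rnase1 (-2.74, SE 0.83, 0.0983) and Pnliprp2 (-1.76, SE 0.54, 0.0999). The SE had a median of 1.22 over the 34 genes against 0.20 over all genes.

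By role, the log2 fold change on the normal diet had a median of -3.60 over the 6 trypsinogens, -3.36 over the 3 chymotrypsinogens, -3.32 over the 3 elastases, -3.58 over Cpa1 and Cpb1, -2.66 over the 6 lipid-digesting genes and -3.58 over the 2 amylases. It was -2.45 over the 7 granule and secretory genes. Within these roles Clps lay at -2.08 (SE 0.67) and Klk1 at -1.34 (SE 0.46). The 3 genes above 0 were Spink3 (0.19, SE 0.43), Reg1 (0.59, SE 0.29, limma adjusted p = 0.439) and Reg2 (1.17, SE 1.40, 0.907). Fold changes on this scale understate low genes such as Rbpjl (-0.98, SE 0.39).

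The call depended on single libraries. Without normal vehicle replicate 4, limma called 5 of the 34 lower (Cuzd1, Pnliprp2, Prss1, Rnase1 and Serpini2), among 23 of 19977 genes lower in that fit. Without normal 1,25D replicate 2 it called 5 lower (Cuzd1, Klk1, Pnliprp2, Prss1 and Rnase1), among 17 of 19929 genes. It called Prss1 alone when replicate 5 of normal vehicle or of rescue vehicle was left out, and Prss1 and Cuzd1 without rescue 1,25D replicate 1. In the other 19 fits that left out a library it called none. The 28 with an unadjusted p under 0.05 became 11 on leaving out normal vehicle replicate 6, 11 on leaving out normal 1,25D replicate 6, and 7 when libraries were weighted by their spread. Across the 24 fits that left out a library the number of genes below 0 was 31 and the median ran from -3.80 to -2.40. Markers of enterocytes moved the other way in the same comparison, with a median log2 fold change of 0.98 over 12. In the fit to all 24 libraries limma called 357 of 20006 genes higher at an adjusted p under 0.05. Among them were 4 of the 12 enterocyte markers (Lct, Alpi, Fabp2 and Cdh17). The part of the enterocyte markers in the result was not tested.

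**Figure D4:**
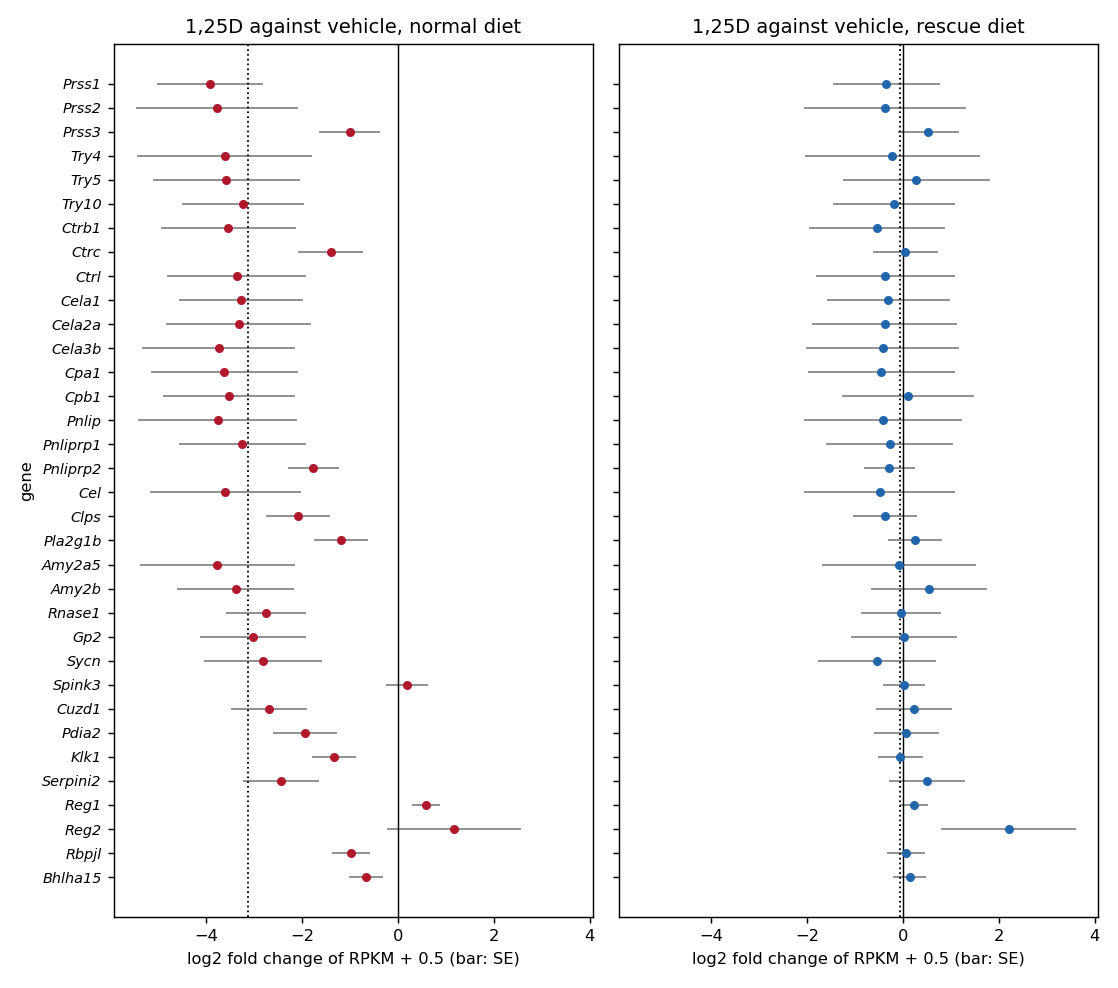
Log2 fold change of RPKM + 0.5 (points) with SE (bars) for 1,25D against vehicle on the normal diet (left) and the rescue diet (right), for the 34 genes tested. The dotted lines mark the medians, -3.13 on the normal diet and -0.07 on the rescue diet.

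On the rescue diet the same question gave no shared direction. Amy2a5 ran from 9.30 through 1260 to 7038 RPKM under vehicle and from 13.8 through 1282 to 16761 RPKM after 1,25D. Prss1 ran from 0 through 8.16 to 34.7 RPKM under vehicle and from 0.262 through 4.12 to 103 RPKM after 1,25D. Both groups held libraries near the bottom and near the top of the range, and they overlapped for each gene. limma called 0 of the 34 genes, where 0.145% of all genes were called, and 0 had an unadjusted p under 0.05, where 4.83% of all genes did. The median log2 fold change was -0.07 beside 0.06 for all genes, and 19 of the 34 were below 0, against 39.1% of all genes. For 0 of the 34 were the groups apart, against 0.365% of all genes. That median turned positive when rescue vehicle replicate 3 (0.28) or 6 (0.01), or rescue 1,25D replicate 3 (0.58) or 4 (0.31), was left out. It became -0.84 without replicate 5 of rescue vehicle and -0.71 without replicate 1 of rescue 1,25D, and -0.39 with library weights.

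The third comparison asks whether the diet changed these genes under vehicle, with the same normal vehicle libraries as in the first. Cuzd1 ran from 2.92 through 13.7 to 74.2 RPKM on the normal diet and from 0.328 through 2.07 to 10.4 RPKM on the rescue diet. Pdia2 ran from 8.35 through 26.5 to 134 RPKM on the normal diet and from 2.503 through 6.28 to 24.8 RPKM on the rescue diet. The rescue libraries lay lower for both, and only rescue vehicle replicate 3 reached into the normal diet range. All 34 genes had a log2 fold change below 0, against 31.1% of all genes, with a median of -2.76 beside 0.10. limma called 0 of the 34 and 0% of all 20006 genes, and the smallest adjusted p was 0.567 for Pdia2 (log2 -2.05, SE 0.67). At an unadjusted p under 0.05, 25 of the 34 were lower, beside 0.6% of all genes. Because these genes vary together across libraries, neither the 34 shared signs nor the 25 are independent of each other. For 0 of the 34 were the groups apart, against 0.225% of all genes. The count of 25 was 13, 9 and 5 without normal vehicle replicates 1, 3 and 6, and 15 and 7 without rescue vehicle replicates 4 and 5. It was 15 with a robust variance prior and 1 with library weights. Reg2 had the lowest value (log2 -3.61, SE 1.40, limma adjusted p = 0.625), with 2.45 to 446 RPKM on the normal and 0 to 8.53 RPKM on the rescue diet.

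After 1,25D, Reg1 was the gene whose diet groups lay apart. It ran from 1745 through 2224 to 3105 RPKM on the normal diet and from 559 through 1263 to 1710 RPKM on the rescue diet. Every normal diet library thus lay above every rescue diet library, which held for 0.815% of all genes and for 1 of the 34. The log2 fold change was -0.93 (SE 0.29), and limma did not call it (adjusted p = 0.423). limma called 0 of the 34 genes and 0.01% of all genes, and at an unadjusted p under 0.05 only Reg1 was lower, beside 3.2% of all genes. Of the 34, 13 were below 0, against 29.3% of all genes. The median over the 34 was 0.21 beside 0.12 for all genes. It was negative without normal 1,25D replicate 6 (-0.54) and without replicate 1 (-0.54) or 5 (-0.19) of rescue 1,25D, and 0.95 without rescue 1,25D replicate 3.

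Whether 1,25D acted differently on each diet was tested as an interaction. Its median was 2.96 over the 34 genes beside 0.01 over all genes, and 2 of the 34, Reg1 and Spink3, were below 0, against 48.3% of all genes. limma called 0 of the 34 and 0.005% of all genes, and 6 of the 34 (Serpini2, Cuzd1, Rnase1, Amy2b, Prss1 and Pdia2) were higher at an unadjusted p under 0.05, beside 1.26% of all genes. Because these genes vary together across libraries, neither the shared signs nor the 6 are independent of each other. The smallest adjusted p was 0.519 for Serpini2 (log2 2.95, SE 1.12). The SE of these differences had a median of 1.73, and limma's adjusted p was above 0.05 for all 34. Other lists had a median of the opposite sign: it was -1.33 over 12 enterocyte markers and -1.13 over 4 digestive hormone signals. In limma, 10 of the 12 and 4 of the 4 had an unadjusted p under 0.05 in either direction, beside 1371 of 20006 genes. The 4 include the receptor gene Cckar, whose level followed the summed exocrine pancreas genes (r = 0.91, 24 libraries). These counts do not give the direction of each gene. limma called 0 of either list. The part of these lists in the result was not tested. The count of 6 moved with single libraries, to 15 and 2 without normal vehicle replicates 4 and 6, to 16 and 2 without normal 1,25D replicates 2 and 6, and to 12 and 2 without rescue vehicle replicates 3 and 5. It was 2, 20, 11 and 3 without rescue 1,25D replicates 1, 3, 4 and 5, and 1 with library weights.

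Beyond the 35 genes, those whose level over the 24 libraries was most like their sum included Casp9, Gm5771, Gm13011, 2210010C04Rik, Aqp12, Amy2a2, Amy2a3, Amy2a4, Erp27, Amy1 and Cckar, with Pearson's r from 0.91 to 0.95. Each was highest in normal vehicle replicate 6. Aqp12 is a water channel of acinar cells, Erp27 a chaperone of the secretory pathway and Cckar the receptor through which cholecystokinin acts. Casp9, the initiator of apoptosis through mitochondria, ran from 4.02 to 268 RPKM. In the RefSeq table of GRCm38.p6 Casp9 overlaps Cela2a by 1025 bases on the opposite strand. The kit keeps strand, but whether the counting used it is not given in the sources used here, so reads of Casp9 and Cela2a cannot be told apart there. In the same table Gm13011 is a synonym of Cela3a and lies 11217 bases from Cela3b.

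Lists of other acinar genes and of other cell types were set beside them. Of 28 other acinar genes 22 were tested, their median r with the sum was 0.80, and 11 reached 0.8, among them Nupr1, a stress gene abundant in acinar cells (r = 0.88), and Gatm, an enzyme of creatine synthesis (r = 0.81). Nr5a2, a nuclear receptor used by both acinar and intestinal cells, did not follow (r = -0.37). limma called 0 of the 22 on the normal diet, with a median log2 fold change of -1.0. Among islet genes, Ins2 was at 13.8 RPKM in normal vehicle replicate 6, at 6.09 RPKM in normal vehicle replicate 5 and at or below 1.22 RPKM in the other 22 libraries. Ins1 reached 4.78 RPKM in normal vehicle replicate 6. The median r was 0.12 over 9 islet genes and -0.42 over 9 duct genes, many of which the duodenal lining also uses. On the normal diet limma called 1 islet gene higher, the factor Pdx1, which the duodenum also expresses (log2 1.09, adjusted p = 0.000708), and 1 duct gene higher, the keratin Krt7 (log2 1.46, adjusted p = 0.00023).

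**Figure D5:**
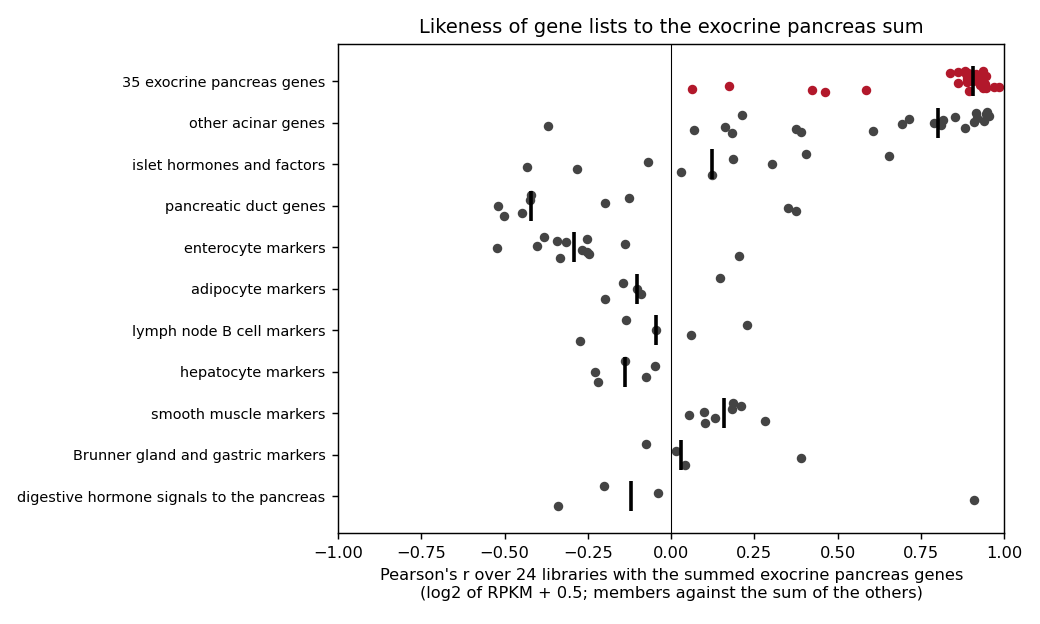
Pearson's r over 24 libraries with the summed exocrine pancreas genes, 1 point per gene that passed the filter (all 35 for the first row, each against the sum of the others), by gene list, with list medians as bars. The medians are 0.91 for the 35 genes and 0.80 for other acinar genes, and lie between -0.42 and 0.16 for the remaining lists.

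Lists for other parts of the duodenal wall and for nearby tissues had lower correlations with the sum. The median r was 0.16 over 8 smooth muscle genes, -0.10 over 5 adipocyte genes, -0.04 over 5 B cell genes, -0.14 over 5 hepatocyte genes and 0.03 over 4 Brunner gland and gastric genes, of which Tff2, a trefoil peptide, had r = 0.39. The adipocyte hormone Adipoq reached 2.25 RPKM and the liver protein Alb 3.44 RPKM. On the normal diet limma called 0 genes of these 5 lists. Enterocyte genes had a median r of -0.29. Summed over 12 of them, enterocyte RPKM ran from 2549 to 5947 in normal vehicle and from 6362 to 12144 in normal 1,25D, which do not overlap. Of single genes, 2.22% did not overlap in that comparison. The enterocyte sum ran from 2394 to 11083 in rescue vehicle and from 1936 to 9097 in rescue 1,25D. It was not rescaled for the share of the exocrine pancreas genes, which was 17.8% in normal vehicle replicate 6. The part of that share in the enterocyte values was not tested. The list of digestive hormone signals to the pancreas was mixed. Cck, the gene of cholecystokinin, had r = -0.20 at 9.30 to 29.8 RPKM, and Tmprss15, enteropeptidase, had r = -0.34 at 3.40 to 153 RPKM. Sct, the gene of secretin, had r = -0.04, whereas the receptor gene Cckar followed the sum (r = 0.91). On the normal diet limma gave log2 fold changes of 0.64 for Cck (SE 0.21, adjusted p = 0.127) and 1.34 for Tmprss15 (SE 0.61, adjusted p = 0.359), neither called.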

How the data were processed

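RNA sequencing was deposited for 24 duodenum libraries in 4 groups of 6, grouped by the treatment and diet labels. Per the labels' protocols, ribosomal RNA was removed and directional libraries were made. TopHat and mm9 appear in the submitters' processing notes, while the quantifying program is not given in the sources used. For each library the authors deposited RPKM, per the file headers, with 30795 entries for 25410 symbols, and entries with the same symbol were summed. The files give no read totals, so absolute depth is unknown; relative depth came from 2088 rarely detected entries (67.4% of library pairs matched within 0.05 log2).

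limma 3.58.1 in R 4.3.3 was fitted to log2(RPKM + 0.5) of 20006 genes with 0.5 RPKM or more in at least 6 libraries, with all 24 libraries, 1 mean per group, an intensity trend and two-sided tests, Benjamini-Hochberg adjusted over all genes. The script was tested on simulated data. Labels do not tie libraries to animals, and their count of injected mice differs from that of libraries, so p-values reflect only how these libraries vary, which may be technical. Tables were read and drawn with Python 3.11.15, numpy 2.4.6, pandas 2.3.3 and matplotlib 3.10.9. The 35 genes and all lists were chosen with earlier results of these data known. Named were all 35 genes, the 12 other genes most like their sum (1 of them is not reported here), up to 4 genes of each other list with the smallest p, and Cyp24a1; Nr5a2, Gatm, Nupr1, Ins2, Adipoq, Alb, Vil1, Tff2, Amy2a1 and the genes at the threshold were named after their values were seen. Alternatives covered the pseudocount, the filter, scaling, library weights, the replicate block, the samples in the fit, the variance prior and leaving out each library.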

Additional observations from a re-analysis of the deposited data

Results flagged for a closer look

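In 144 groups of 6 libraries (35 genes and the share, each in 4 groups), the highest or lowest library was set against the rest on the log2(RPKM + 0.5) scale, and for the share on the percent scale. A gap above Dixon's 95% critical value of 0.625 of the group's range was found in 24. Chance alone gives such a gap in about 1 in 20 groups if values are normally distributed, and these genes vary together, so the 24 are not independent.

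On the percent scale the share of summed RPKM stood out in a library of every group: 17.8% in normal vehicle replicate 6, 4.09% in normal 1,25D replicate 2, 2.67% in rescue vehicle replicate 3 and 6.30% in rescue 1,25D replicate 1. That scale stretches high values more than the log2 scale used for the genes, so these flags may rest on it. No gene was flagged in normal vehicle replicate 6.

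Rescue vehicle replicate 5 lay far below its group for 10 genes. There Prss2 was at 0.693 RPKM where the other 5 libraries held 115 to 1060, Try4 at 0.084 RPKM, Try5 at 0.0 RPKM and Ctrb1 at 0.493 RPKM. Cela2a was at 0.111 RPKM, Cela3b at 0.15 RPKM and Cpa1 at 0.128 RPKM. Pnlip was at 0.453 RPKM, Cel at 0.297 RPKM and Amy2a5 at 9.30 RPKM, where the other 5 libraries held 900 to 7038 RPKM.

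Normal 1,25D replicate 2 lay far above its group for Prss3 (7.31 RPKM), Pnliprp2 (37.4 RPKM), Klk1 (44.4 RPKM), Serpini2 (12.3 RPKM) and Rbpjl (1.03 RPKM). Rescue 1,25D replicate 1 did so for Prss3 (6.62 RPKM) and Serpini2 (32.8 RPKM), and rescue vehicle replicate 3 for Pnliprp2 (27.6 RPKM). Reg1 was low in rescue 1,25D replicate 5 (559 RPKM against 1159 to 1710 RPKM in the other 5), and Bhlha15 was high in rescue vehicle replicate 6 (7.45 RPKM against 2.86 to 4.12 RPKM).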

How the results depend on the processing

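None of the genes tested of the 35 was called in any comparison under either pseudocount (0.1 or 1), without or with a stricter filter, under quantile or equal-sum scaling, with a robust variance prior or with the replicate block. For 1,25D on the normal diet, a fit to only the groups compared called 1 gene, Prss1, and leaving out a library gave 0 to 5. For the diets after 1,25D, array weights called 2, Reg1 lower and Bhlha15 higher. The numbers do not pair libraries: over 36 same-number pairs the correlation ran from -0.44 to 0.48 with a median of 0.00, 13 were over 0.1 and 3 of 24 libraries correlated best with their own number. With the replicate block the smallest adjusted p on the normal diet was 0.0822, and 0 of the 34 genes were called in any comparison, while the 25 genes lower under vehicle at an unadjusted p under 0.05 became 17.

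Of 3568 alternative values for 103 fold changes (all 34 genes for 1,25D on the normal diet, diet under vehicle and the interaction, and Reg1 for diet after 1,25D), 3564 had the same sign and 16 passed the threshold where the value as reported did not. The exceptions in sign were Bhlha15 for diet under vehicle and Spink3 for the interaction. Bhlha15 was 0.0848 without normal vehicle replicate 6 (-0.4458 to 0.0848 over all fits). It was 0.0073 when the rest was also scaled to an equal sum (added after the data were seen). Spink3 was 0.13 without replicate 2 of rescue vehicle or replicate 5 of rescue 1,25D (-0.6116 to 0.1276 over all fits). For 1,25D on the rescue diet 29 genes changed sign under some alternative, and for diet after 1,25D 27 did. The median of the first was 0.0086 under equal-sum scaling, with and without normal vehicle replicate 6, and ran from -0.84 to 0.58 when a library was left out. That of the second was -0.0313 under array weights and ran from -0.54 to 0.95. All-gene calls on the normal diet, 357 higher and 11 lower, were 217 and 41 with the sum over other genes made equal, 231 and 93 after quantile normalization, 376 and 99 with array weights and 279 and 117 without normal vehicle replicate 6. For diet after 1,25D array weights called 815 genes higher and 472 lower where 0 and 2 were called without them.

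The median share was 0.22% without the 3 highest genes, Amy2a5, Reg1 and Try4. The count of genes with r of 0.8 or more, 30, was 30 with a pseudocount of 0.1, 29 without the highest and lowest library, 29 against a sum without Reg1 and 28 with both, the last 2 added after the data were seen. RPKM without read totals give no counting error, so values near 0 carry an unknown one.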
